A study of Mus musculus with 23 samples.

Results

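Potassium channel genes outside a set made up mainly of ethanol-sensitive GIRK, BK and SK channels were described in mouse hippocampus. They were taken from the deposited table by symbol: of 94 genes whose symbol starts with Kcn, 11 were set aside by name (Kcnj3, Kcnj5, Kcnj6, Kcnj9, Kcnj10, Kcnma1, Kcnmb4, Kcnn1, Kcnn2, Kcnn3 and Kcne2), which left 83. A mean of at least 0.1 FPKM over all mice was then required. FPKM divide the fragments of a gene by its transcript length and by the library's total, so levels can be compared between genes. The floor kept 74 genes in 19 subfamilies, the BK beta subunits Kcnmb1, Kcnmb2 and Kcnmb3 among them, out of 19733 genes in the table. The 9 genes below it were Kcna10, Kcna7, Kcne1, Kcnj1, Kcnk15, Kcnk16, Kcnk18, Kcnn4 and Kcnv2. Kcnj15 lay just inside the floor with a mean of 0.103 FPKM and Kcnn4 just outside with 0.0809 FPKM.

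RNA sequencing was performed on hippocampi of 9 Ctrl, 7 EtOH and 7 EtOH-UA mice. All were wild-type male C57BL/6J mice acquired at 6 weeks of age and treated for 16 weeks, with 1 week of behavioral tests before collection. Ctrl mice received an AIN93M control liquid diet and EtOH mice the ethanol liquid diet, and both were gavaged daily with the vehicle, 0.05% CMC-Na. EtOH-UA mice received the ethanol diet and urolithin A (UA), a gut microbial metabolite of ellagitannins, by gavage at 200 mg/kg/day in the same vehicle. No group received UA on the control diet. The labels number the samples of a group without naming animals, and mice were housed 4 per cage with no cage given, so p-values measure the spread between these samples.

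Potassium channels let potassium leave the cell, which sets the resting potential and ends the action potential. Voltage-gated (Kv) channels are assembled from 4 pore-forming subunits and take up auxiliary subunits in the cytoplasm or membrane. Inward rectifiers (Kcnj) and tandem-pore leak channels (Kcnk) act near rest, and the M current of Kcnq channels is suppressed by muscarinic receptors. In the hippocampus these currents shape the firing of pyramidal cells and of fast-spiking interneurons.

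Promoters are shown for the member that varied most between mice, Kcnj13, and for Kcnc1, a channel of fast-spiking neurons, both chosen after their values were seen. The 250 bases before an annotated start of each gene are given 5′ to 3′ on the gene's strand, from RefSeq on GRCm38.p6. Capitals mark CG pairs and the motif TATAAA. The Kcnj13 stretch lies at chr1:87394730-87394979, minus strand, and borders the gene, which reaches to chr1:87394729. The Kcnc1 stretch lies at chr7:46396218-46396467, plus strand. The Kcnc1 gene begins at chr7:46396219, so this stretch lies almost wholly inside the gene, before a later start.
Kcnj13: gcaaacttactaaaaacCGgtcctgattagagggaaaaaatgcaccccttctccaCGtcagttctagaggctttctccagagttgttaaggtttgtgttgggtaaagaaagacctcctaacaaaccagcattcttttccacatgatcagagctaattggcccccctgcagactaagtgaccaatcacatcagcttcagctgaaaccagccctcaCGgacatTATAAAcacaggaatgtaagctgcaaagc
Kcnc1: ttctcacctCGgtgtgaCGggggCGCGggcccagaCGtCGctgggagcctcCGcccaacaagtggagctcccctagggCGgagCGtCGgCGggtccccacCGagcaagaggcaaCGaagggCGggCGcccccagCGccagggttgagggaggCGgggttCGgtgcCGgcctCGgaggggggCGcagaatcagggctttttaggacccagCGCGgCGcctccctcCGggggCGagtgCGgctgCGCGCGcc
The Kcnj13 stretch held 3 CG pairs and a TATAAA that began at position -29 from the gene start. The Kcnc1 stretch held 30 CG pairs and no TATAAA. RefSeq windows reaching 250 bases before and 50 after the start were found for 52 of the 74 members, 74 windows in all. TATAAA on either strand occurred in 4 of them (5.41%), those of Kcnj13, Kcnab1, Kcnj16 and Kcnj15, against 13.6% of all 32851 windows of that length. At least 10 CG pairs were present in 45.9% of the member windows and 43.5% of all windows. These matches are descriptions of letters and were not tied to any factor.

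Several properties of the libraries bear on the values. Summed FPKM ranged from 327896 to 404609, and 2 EtOH-UA mice were highest, at 379518 and 404609, with the next mouse at 366930. The 74 members summed to 1023 and 977 FPKM in these 2 mice, and to between 1059 and 1119 FPKM in the other 5 EtOH-UA mice. The 5 choroid plexus markers (Ttr, Folr1, Clic6, Kl and Kcne2) summed to 16.1 and 7809 FPKM in the same 2 mice, so they differed in this content. Main comparisons of members that include these 2 mice are also given without them. Levels and coefficients of variation are given with all mice only. The 5 marker genes of hippocampal neurons (Prox1, Fibcd1, Wfs1, Neurod6 and Zbtb20) summed to between 145 and 199 FPKM in all mice. Single genes varied more than this sum. Neurod6, the highest, ranged from 71.3 to 133 FPKM and Wfs1 from 19.0 to 38.6 FPKM. Fibcd1 ranged from 3.62 to 34.3, Prox1 from 5.66 to 23.2 and Zbtb20 from 0.44 to 7.2 FPKM, so the sum does not show even hippocampal content. The 4 genes of thalamus and septum summed to between 9.5 and 29.8 FPKM. Depth was not given in the sources used here. The even steps between low values in 96 genes with 1 transcript put 1 FPKM at a median of 16.7 fragments per kilobase (quartiles 14.9 and 18.8). The settings for this estimate were chosen after values were seen. Fragments per mouse given below use it with the longest annotated transcript of the gene, so a shorter transcript would give fewer. In bulk tissue, fewer cells of a type and less RNA per cell cannot be told apart.

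The median member had a mean of 6.44 FPKM, against 7.59 FPKM over the 15986 genes that met the same floor. Between 0.1 and 1 FPKM lay 14 members, between 1 and 10 FPKM 33, and at 10 FPKM or above 27. A value above 0 in every mouse was found for 73 members, and Kcne3 was at 0 in 1 EtOH mouse. The plot of levels by subfamily shows this range, with the 3 groups side by side for each gene.

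**Figure D1:**
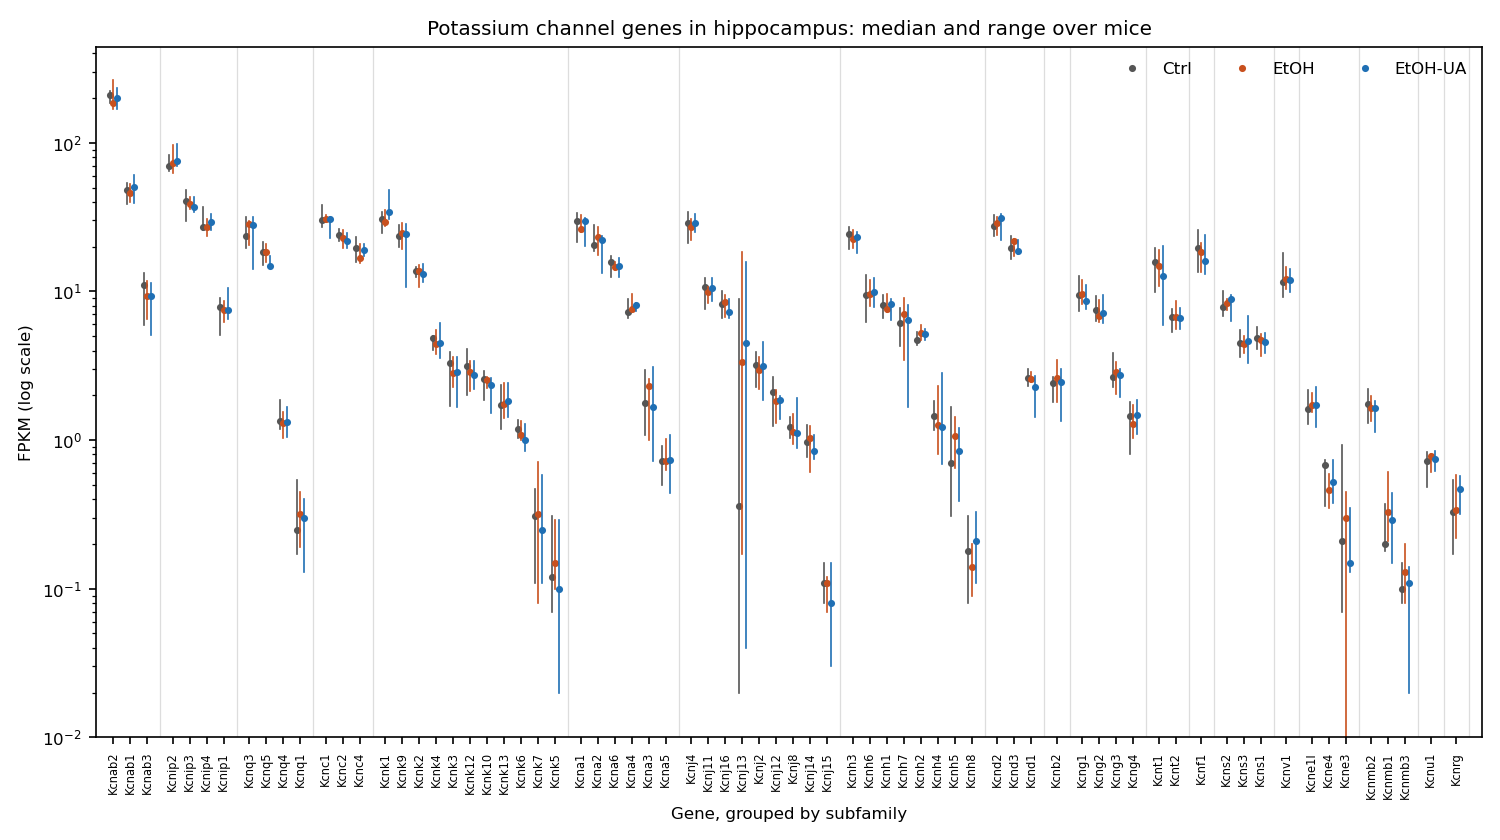
FPKM on a log axis for 71 of the 74 genes, grouped by subfamily. Points are medians and lines run from the lowest to the highest mouse of the Ctrl (grey, n = 9), EtOH (orange, n = 7) and EtOH-UA (blue, n = 7) groups. A line that reaches the lower edge of the plot (Kcne3 in EtOH) stands for a value of 0. Kcnab2 stands alone at the top, and Kcnj13 has the longest lines in the Ctrl and EtOH-UA groups.

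Auxiliary subunits in the cytoplasm led the list. The 3 Kcnab genes, which encode the beta subunits of Kv1 channels, held 24.0% of all member FPKM. Kcnab2 had the highest level of any member. Its lowest, median and highest values were 185, 208 and 223 FPKM in Ctrl, 169, 185 and 265 FPKM in EtOH, and 168, 201 and 234 FPKM in EtOH-UA mice. Its lowest mouse lay above the highest mouse of Kcnip2, which reached 98.1 FPKM. Kcnab1 averaged 47.6 FPKM and Kcnab3 9.57 FPKM. The 4 Kcnip genes encode calcium-binding proteins that attach to Kv4 channels, and held 14.0% of member FPKM. Kcnip2 averaged 74.9 FPKM, Kcnip3 39.0, Kcnip4 28.6 and Kcnip1 7.59 FPKM. Their partners, the A-type Kv4 channels of pyramidal dendrites, were led by Kcnd2 at 28.2 and Kcnd3 at 20.2 FPKM, and Kcnd1 averaged 2.52 FPKM.

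Among the Kcnq genes, Kcnq3 and Kcnq5 encode subunits of the M current. Kcnq3 averaged 25.1 FPKM and Kcnq5 17.4 FPKM. The cardiac and epithelial subunit Kcnq1 averaged 0.277 FPKM.

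Among the Kcnc (Kv3) genes, whose channels repolarise fast-spiking neurons, Kcnc1 averaged 30.5, Kcnc2 22.9 and Kcnc4 18.9 FPKM. Of the 6 Kcna (Kv1) genes, the axonal subunits Kcna1 and Kcna2 led at 27.6 and 21.9 FPKM. Kcna6 averaged 14.8 and Kcna4 7.84 FPKM, and Kcna3 and Kcna5 lay below 2 FPKM. The delayed rectifier Kcnb2 averaged 2.37 FPKM. Subunits that form no channel alone and join other Kv subunits were also present, with Kcnf1 at 17.9, Kcnv1 at 12.2, Kcng1 at 9.42 and Kcns2 at 8.30 FPKM.

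The Kcnh genes encode the EAG, ERG and ELK channels. Kcnh3 was highest at 23.01 FPKM, followed by Kcnh6 at 9.54 and Kcnh1 at 7.98 FPKM. Kcnh8 was lowest at 0.175 FPKM. Among the 11 Kcnk leak channels, Kcnk1 averaged 32.3, Kcnk9 23.6 and Kcnk2, which responds to stretch and lipids, 13.5 FPKM. Kcnk5 and Kcnk7 averaged below 0.5 FPKM, and the other 6 leak channels between 1.12 and 4.59 FPKM. Of the inward rectifiers, Kcnj4 led at 28.1 FPKM, and Kcnj11, the pore of the ATP-sensitive channel, averaged 10.2 FPKM. The sodium-activated channels Kcnt1 and Kcnt2 averaged 13.9 and 6.77 FPKM. The small membrane subunits Kcne1l, Kcne4 and Kcne3 lay at 1.72, 0.550 and 0.260 FPKM, and Kcnmb2, a beta subunit of BK channels, at 1.68 FPKM. The sperm channel Kcnu1 averaged 0.728 FPKM and Kcnrg, a soluble regulator, 0.396 FPKM.

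Variation between mice was modest for most members. Over the 60 members with a mean of at least 1 FPKM, the median coefficient of variation (SD within groups, pooled over the 3 groups, divided by the mean of all mice) was 13.7%. The same value was 14.5% for 10 of the 11 channels set aside, 12.5% for 29 voltage-gated calcium and sodium channel genes and 11.5% for 12904 genes of the table. Kcnc2 was the steadiest at 7.24%, and Kcnj13 the most variable at 126%. Behind Kcnj13 came Kcnh4 (32.8%), Kcna3 (32.1%), Kcnh7 (31.2%) and Kcnt1 (26.0%).

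The comparison of EtOH with Ctrl mice addresses the effect of the ethanol diet. By limma, with p-values adjusted over all 15986 genes, 0 of the 74 members passed an adjusted p under 0.05, and the share of all genes that passed was 0.0%. Without adjustment 3 members (4.05%) had a p under 0.05, against 3.05% of all genes. Kcnmb1 and Kcnh2 were higher (1.95% of all genes were called in this direction) and Kcne4 was lower (1.1%). The median log2 fold change was -0.01 over the members and -0.003 over all genes. On this scale, log2(FPKM + 0.1), changes of genes near 0.1 FPKM are understated. Fold changes on this scale were above 0, here called higher, for 36 members (48.6%, all genes 48.6%). The 95% interval of the difference lay within 0.5 log2 units of 0 for 62 members (83.8%, all genes 82.8%). The groups overlapped for every member, and the share of all genes without overlap was 0.00626%.

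Kcnmb1 (chr11:33962955-33973641, plus strand), a BK beta subunit of smooth muscle, was measured at 0.18, 0.20 and 0.37 FPKM (lowest, median, highest) in Ctrl and at 0.21, 0.33 and 0.61 FPKM in EtOH mice. All 7 EtOH mice lay above the Ctrl median. This gave a log2 fold change of 0.45 (SE 0.18), with an adjusted p of 0.999 by limma and an unadjusted exact permutation p of 0.0178, two-sided. At its mean of 0.292 FPKM the transcript rests on about 20.5 fragments per mouse. Kcnmb1 lies within the span of Kcnip1 (chr11:33629339-33993348, minus strand), which averaged 7.59 FPKM. The part of unspliced Kcnip1 RNA in the Kcnmb1 values was not tested. The mural cell markers Pdgfrb, Rgs5, Acta2 and Vtn summed to between 56.8 and 73.9 FPKM in Ctrl and between 56.1 and 71.4 FPKM in EtOH mice. Vtn and Rgs5, at means of 30.5 and 26.3 FPKM, weigh most in this sum, and Pdgfrb and Acta2 averaged 4.47 and 4.08 FPKM. Acta2 lay at 2.69, 3.69 and 4.57 FPKM in Ctrl and at 2.92, 3.72 and 5.66 FPKM in EtOH mice. The part of these markers in the difference was not tested.

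Kcnh2 (chr5:24319589-24351684, minus strand), the ERG channel of cardiac repolarisation, lay at 4.34, 4.68 and 5.30 FPKM in Ctrl and at 4.69, 5.29 and 5.91 FPKM in EtOH mice. The 7 EtOH mice were above the Ctrl median, and the ranges overlapped. The difference was 0.15 on the log2 scale (SE 0.06), with an adjusted p of 0.999 by limma. Kcne4 (chr1:78816911-78820032, plus strand), a membrane subunit that dampens Kv currents, lay at 0.36, 0.68 and 0.74 FPKM in Ctrl and at 0.35, 0.46 and 0.59 FPKM in EtOH mice. The 7 EtOH mice were below the Ctrl median. The difference was -0.32 on the log2 scale (SE 0.15), with an adjusted p of 0.999 by limma. At about 24.4 fragments per mouse, Kcne4 is near the depth at which single fragments move the value.

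Other members with small p-values in this comparison had intervals that included 0. Kcnc2 had a log2 fold change of -0.08 (95% interval -0.19 to 0.03) and Kcnab2 of -0.10 (-0.27 to 0.06). Kcnh5, an EAG channel, had 0.35 (-0.16 to 0.87). By subfamily, 5 of 6 Kcna, 4 of 5 Kcnq and 5 of 8 Kcnh genes had log2 fold changes above 0 (all genes 48.6%). Those of 0 of 3 Kcnab and 2 of 9 Kcnj genes were above 0. So were those of 2 of 2 Kcnt, 5 of 11 Kcnk, 1 of 4 Kcnip and 1 of 4 Kcnc genes. With the summed FPKM of each mouse as a covariate, the Kcna count was 3 of 6.

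The comparison of EtOH-UA with EtOH mice addresses the effect of UA on the ethanol diet. By limma 0 of 74 members passed an adjusted p under 0.05 (0.0% of all genes), with a smallest adjusted p of 0.900. Without adjustment 3 members (4.05%) had a p under 0.05, against 3.27% of all genes: Kcnk1 was higher (1.83% of all genes) and Kcnq5 and Kcnd1 were lower (1.45%). Log2 fold changes above 0 were found for 26 members (35.1%), against 51.2% of all genes, and the median log2 fold change was -0.04 (all genes 0.003). Without the 2 EtOH-UA mice of highest summed FPKM, 42 members were higher (49.7% of all genes) and the median was 0.02. Unadjusted p-values under 0.05 were then found for Kcnq5, Kcnk1, Kcnj16 and Kcnj2 (2.33% of all genes). Intervals lay within 0.5 log2 units of 0 for 60 members (81.1%, all genes 80.3%), and for 63 without these mice, and no member's groups were apart (0.025% of all genes).

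Kcnq5 (chr1:21398399-21962650, minus strand), a subunit of the M current, had the smallest p of the members. It lay at 15.7, 18.3 and 21.0 FPKM in EtOH and at 14.6, 14.9 and 17.2 FPKM in EtOH-UA mice. All 7 EtOH-UA mice were below the EtOH median, and the ranges overlapped. The log2 fold change was -0.26 (SE 0.08, 95% interval -0.41 to -0.10). The adjusted p was 0.900 by limma and the unadjusted exact permutation p 0.00291, two-sided. Without the 2 EtOH-UA mice of highest summed FPKM it was -0.24 (SE 0.08).

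Kcnk1 (chr8:125993655-126030685, plus strand), a leak channel of neurons and astrocytes, lay at 27.6, 29.2 and 35.3 FPKM in EtOH and at 30.7, 34.0 and 48.0 FPKM in EtOH-UA mice. All 7 EtOH-UA mice were above the EtOH median. The log2 fold change was 0.25 (SE 0.09), with an adjusted p of 0.900 by limma. The value of 48.0 FPKM belonged to the mouse with the highest summed FPKM, and without both such mice the log2 fold change was 0.17 (SE 0.08). Kcnd1 (chrX:7823759-7838278, plus strand) lay at 2.47, 2.59 and 2.89 FPKM in EtOH and at 1.42, 2.26 and 2.68 FPKM in EtOH-UA mice. Its lowest value came from the same mouse. The log2 fold change was -0.22 (SE 0.10) with all mice and -0.10 (SE 0.08) without both, at an adjusted p of 0.900 and 0.999 by limma.

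**Figure D2:**
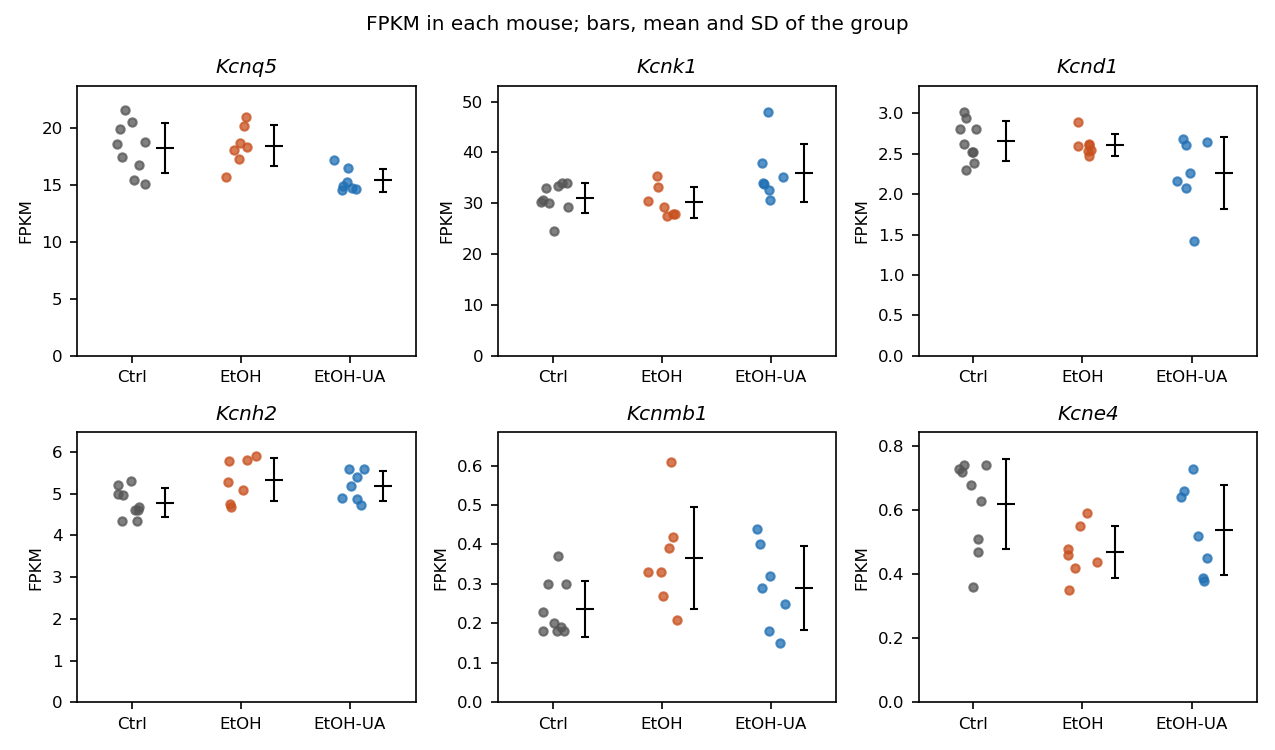
FPKM of each mouse for the 6 members with an unadjusted p under 0.05 in the EtOH against Ctrl or the EtOH-UA against EtOH comparison; bars give the mean and SD of the Ctrl (n = 9), EtOH (n = 7) and EtOH-UA (n = 7) groups. The groups overlap for each gene, Kcnq5 is lowest in EtOH-UA mice (15.4 ± 1.03 FPKM), and 1 EtOH-UA mouse stands apart for Kcnk1 (48.0 FPKM) and Kcnd1 (1.42 FPKM).

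In the subfamilies, log2 fold changes were above 0 for 0 of 6 Kcna, 0 of 5 Kcnq and 0 of 3 Kcnmb genes (all genes 51.2%). They were above 0 for 3 of 4 Kcnip and 5 of 9 Kcnj genes. The same held for 3 of 3 Kcns, 4 of 11 Kcnk, 2 of 8 Kcnh, 0 of 2 Kcnb and 0 of 2 Kcnt genes. Without the 2 EtOH-UA mice of highest summed FPKM the counts were 4 of 6 for Kcna, 2 of 5 for Kcnq, 0 of 3 for Kcnmb, 3 of 4 for Kcnip and 5 of 9 for Kcnj. Kcng1, a subunit that forms no channel alone, had a log2 fold change of -0.18 (95% interval -0.39 to 0.03), and of -0.15 without these mice. Kcnj16, an inward rectifier of astrocytes, lay at 6.70, 8.54 and 9.47 FPKM in EtOH and at 6.65, 7.27 and 8.88 FPKM with UA. The log2 difference was -0.17 (SE 0.10), and -0.22 (SE 0.11) without these mice, at an adjusted p of 0.900 and 0.999 by limma. Kcnj2, another inward rectifier, had 0.07 (SE 0.16) with all mice and 0.30 (SE 0.14) without them. The 6 astrocyte markers (Aqp4, Gja1, Slc1a2, Slc1a3, Aldh1l1 and Gfap) summed to between 693 and 772 FPKM in EtOH and between 617 and 803 FPKM in EtOH-UA mice, and their part was not tested. Kcnj8, the rectifier of pericytes, had a log2 fold change of 0.06 (SE 0.13) with all mice and of -0.07 (SE 0.12) without the same pair, with the mural cell markers between 56.3 and 75.5 FPKM in EtOH-UA mice.

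The comparison of EtOH-UA with Ctrl mice shares the EtOH-UA mice with the one above, so its values are not a second measurement of them. By limma 0 of 74 members passed (0.0% of all genes). Without adjustment 4 members (5.41%) were under 0.05, against 3.08% of all genes. One, Kcnk1, was higher (1.56% of all genes) and Kcnq5, Kcnd1 and Kcnc2 were lower (1.52%), and no member's groups were apart (0.0125%). Kcnq5 had a log2 fold change of -0.24 (SE 0.07), Kcnk1 of 0.21 (SE 0.08), Kcnd1 of -0.24 (SE 0.10) and Kcnc2 of -0.12 (SE 0.05), each with an adjusted p of 0.999 by limma. Kcnq5 lay at 15.1, 18.5 and 21.6 FPKM in Ctrl mice, and the 7 EtOH-UA mice were below that median. Kcnc2 lay at 21.8, 24.1 and 26.1 FPKM in Ctrl and at 19.7, 21.9 and 24.6 FPKM in EtOH-UA mice, with 6 of 7 below the Ctrl median. Without the 2 EtOH-UA mice of highest summed FPKM the values were -0.22 for Kcnq5, 0.14 for Kcnk1, -0.13 for Kcnd1 and -0.09 for Kcnc2. Of these, Kcnk1, Kcnd1 and Kcnc2 were then no longer under an unadjusted p of 0.05 by limma (0.0783, 0.124 and 0.117). Kcnq3, at 0.28 (SE 0.10), and Kcnmb1, at 0.39 (SE 0.18), came under it (6.14% of all genes), where with all mice they had 0.03 (SE 0.14) and 0.19 (SE 0.18). Log2 fold changes above 0 were found for 27 members (36.5%, all genes 51.2%), and for 41 without these 2 mice (all genes 49.4%). Intervals lay within 0.5 log2 units of 0 for 61 members (82.4%, all genes 83.1%), and for 62 without these mice.

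**Figure D3:**
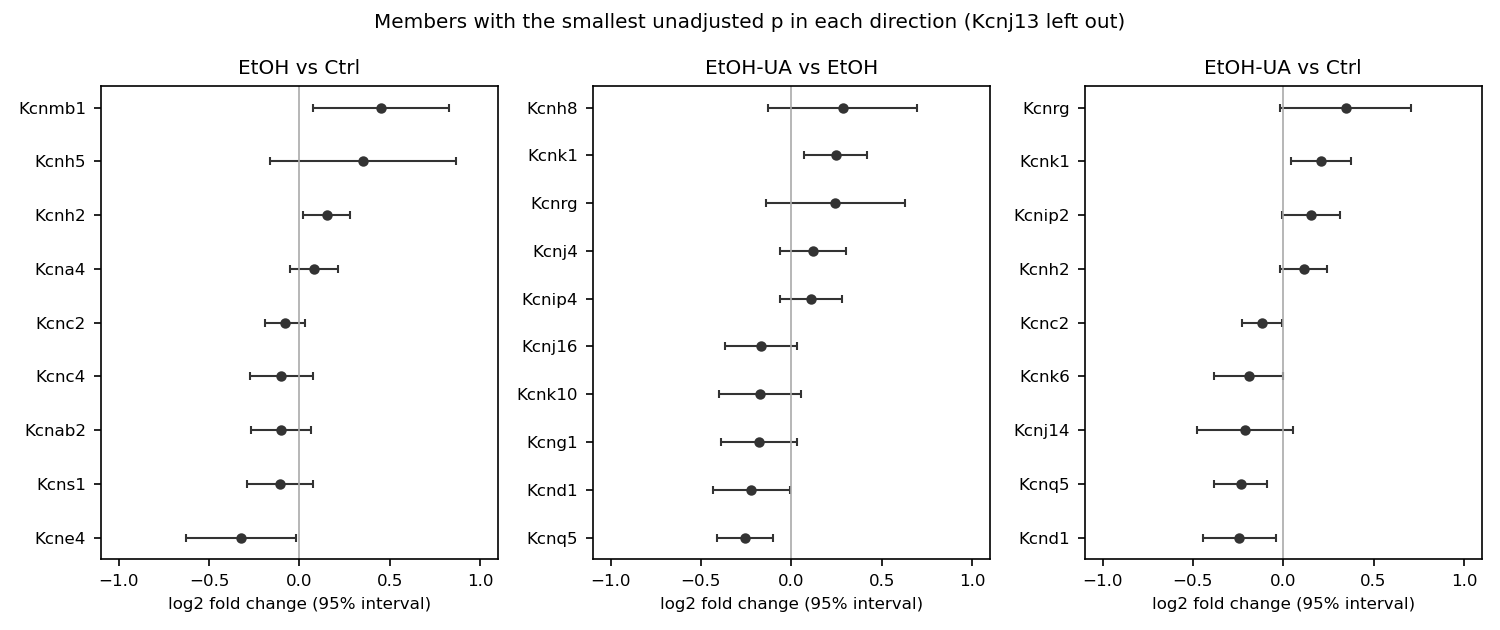
Log2 fold changes of log2(FPKM + 0.1) with 95% intervals from limma, for up to 5 members in each direction with the smallest unadjusted p in each comparison (Kcnj13, off the scale, left out). Most intervals reach or cross 0, and those of Kcnq5, Kcnk1 and Kcnd1 lie to 1 side of it in both comparisons with EtOH-UA mice.

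Kcnj13, an inward rectifier of transporting epithelia such as the choroid plexus, had the largest fold changes against Ctrl mice and the widest errors. Its gene (chr1:87384577-87394729, minus strand) lay at 0.02, 0.36 and 8.89 FPKM in Ctrl, at 0.17, 3.34 and 18.3 FPKM in EtOH and at 0.04, 4.53 and 15.8 FPKM in EtOH-UA mice. Each group held mice below 0.2 FPKM and mice above 8 FPKM. The log2 fold change was 1.63 (SE 1.06) for EtOH and 1.25 (SE 1.06) for EtOH-UA against Ctrl mice, with adjusted p of 0.999 by limma in both and exact permutation p of 0.159 and 0.321, two-sided. Without the 2 EtOH-UA mice of highest summed FPKM the latter fold change was 1.45 (SE 1.07). For EtOH-UA against EtOH mice the value was -0.38 (SE 1.12), and -0.18 (SE 1.12) without these 2 mice.

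The same mice carried the choroid plexus genes. Ttr, the thyroid hormone carrier of that tissue, ranged from 3.88 to 7705 FPKM. The 4 mice with the highest Kcnj13 were the 4 with the highest Ttr, and 6 of the 8 highest were shared. In the EtOH mouse with the highest Kcnj13 (18.3 FPKM), Ttr was at 5628 and Folr1, a folate receptor, at 21.5 FPKM. In the Ctrl mouse with the lowest (0.02 FPKM), they were at 9.03 and 0.14 FPKM. The 5 choroid plexus markers, of which Kcne2 is one, summed to between 7.89 and 2967 FPKM in Ctrl, between 69.4 and 5741 FPKM in EtOH and between 16.1 and 7809 FPKM in EtOH-UA mice. None of the 5 was at 0 in any mouse. Their part in the group differences of Kcnj13 was not tested.

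**Figure D4:**
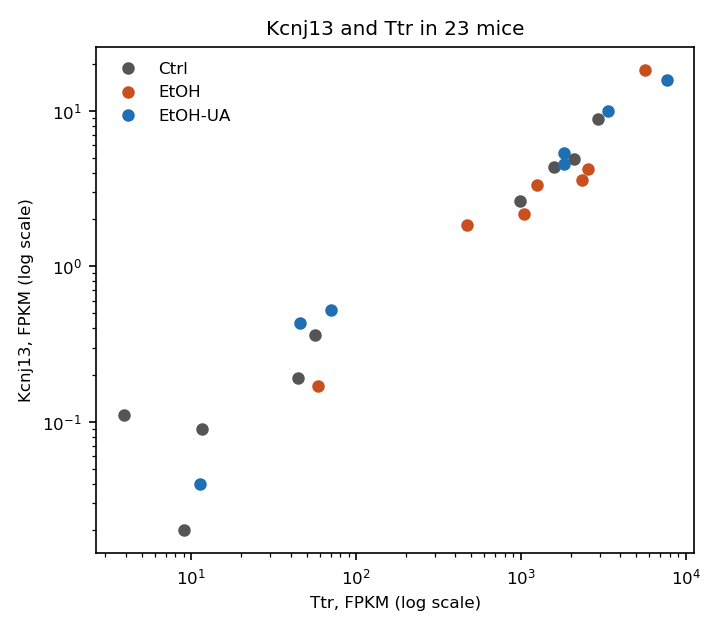
Kcnj13 against Ttr, both in FPKM on log axes, with 1 point for each of the 23 mice, coloured by group. The points lie along 1 diagonal, from 0.02 FPKM of Kcnj13 at 9.03 FPKM of Ttr to 18.3 FPKM at 5628 FPKM, and each group is spread along it.

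Another pattern ran across groups with the summed FPKM. The 8 mice with the highest sums (346211 and above, the others at most 342285) were 4 Ctrl, 2 EtOH and 2 EtOH-UA mice, a split set after the data were seen. At least 6 of them were among the 8 lowest mice for 15 members (20.3%, all genes 13.7%) and among the 8 highest for 0 members (all genes 17.6%). For Kcnq3 all 8 were lowest, at 14.1 to 23.2 FPKM against 23.8 to 31.8 FPKM in the others. For Kcnc1 and Kcnk9 7 of the 8 were. The 15 genes had a median transcript length of 7760 bases, against 3392 bases for the other 59 members. FPKM divide by transcript length, so a library's summed FPKM depends on the lengths of its transcripts. Length and sum are therefore not independent. The lengths of all genes in the same position were not compared. What else sets the summed FPKM was not tested.

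**Figure D5:**
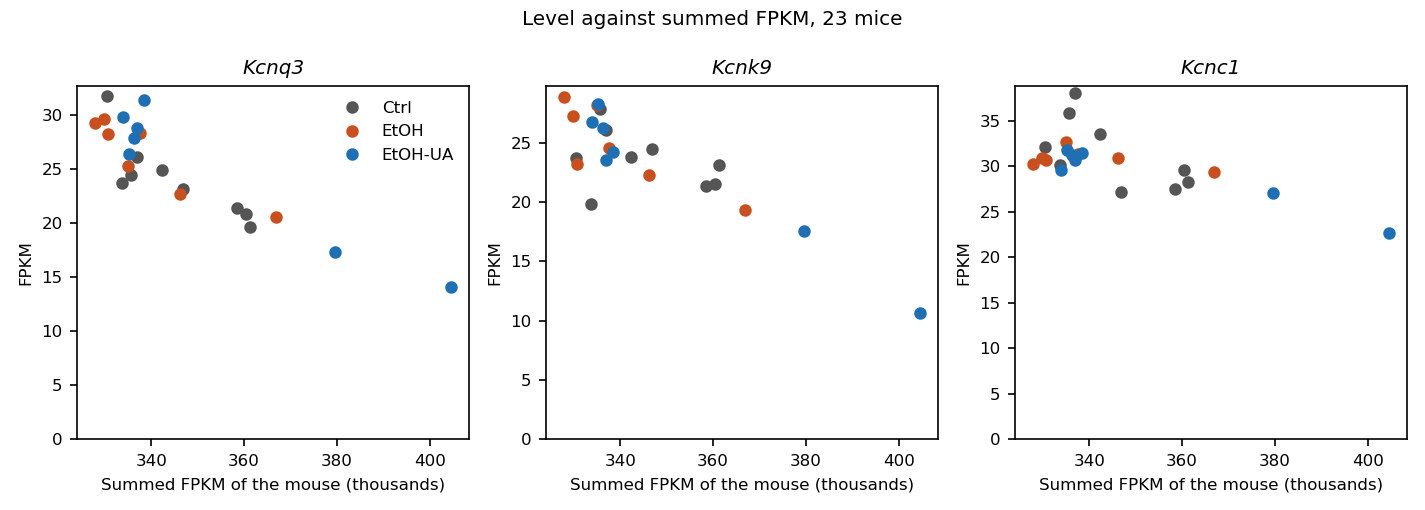
FPKM of Kcnq3, Kcnk9 and Kcnc1 against the summed FPKM of each of the 23 mice, coloured by group. The mouse with the highest sum (404609) is the lowest for the 3 genes, at 14.1, 10.7 and 22.7 FPKM.

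Genes that work with these channels were also tested. Of a list of 34 auxiliary subunits, scaffolds and further potassium-permeable channels, 33 met the floor. By limma 0 of them passed an adjusted p under 0.05 in any comparison, and 0 had an unadjusted p under 0.05 (3.05%, 3.27% and 3.08% of all genes). Log2 fold changes above 0 were found for 16 of 33 in EtOH against Ctrl (all genes 48.6%), 12 in EtOH-UA against EtOH (all genes 51.2%) and 14 in EtOH-UA against Ctrl mice (all genes 51.2%). These counts were not taken without the 2 EtOH-UA mice of highest summed FPKM. The smallest limma p belonged to Amigo1, an adhesion protein that binds Kv channels, at 20.6 ± 0.84 FPKM in Ctrl and 19.5 ± 0.38 FPKM in EtOH mice (SD, n = 9 and 7). For Amigo1 the 2 tests differed, with an unadjusted p of 0.0556 by limma and 0.00629 by exact permutation, two-sided. The adjusted p was 0.999 by limma. In EtOH-UA against EtOH mice the smallest limma p belonged to Tmem38b, a cation channel of the endoplasmic reticulum, at 5.80 ± 0.85 and 5.16 ± 0.40 FPKM (SD, n = 7 each). Its unadjusted p was 0.0659 by limma and 0.0932 by exact permutation. The Kv4 subunit Dpp6 averaged 86.6 FPKM, the scaffold Dlg4 201 FPKM and the pacemaker channel Hcn2 26.2 FPKM.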

How the data were processed

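Hippocampal RNA of 23 mice was sequenced by the authors as 100 bp paired-end reads. The methods name poly(A)+ RNA and the labels total RNA. The deposited FPKM were made by the authors with Bowtie2 on mm10 and RSEM, to 2 decimals. The submitters' processing notes name Bowtie2 2.2.5 and RSEM 1.2.8, and the methods name other versions. Columns were assigned to groups by name and carry no replicate numbers.

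One limma model (version 3.58.1, R 4.3.3) of the 3 groups was fitted to log2(FPKM + 0.1) of the 15986 genes that averaged 0.1 FPKM or more, using eBayes with a trend and without covariates. Adjustment was by Benjamini-Hochberg over these genes. Exact permutation tests covered 3432 splits (7 against 7 mice) or 11440 splits (7 against 9). The pipeline was tested on simulated data. The study's count test was not used because FPKM are not counts.

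Named members were the 2 highest of each subfamily, up to 5 in each direction with the smallest p per comparison, the 6 most variable with a mean of at least 1 FPKM, those next to the floor, and Kcnj13, Kcnj8 and Kcnj16. A member named outside this rule (such as Kcnq1 or Kcnip1) was named for its level, after values were seen. Members and lists were chosen with earlier results of these data known. Alternatives changed the pseudocount (1 or 0.01), the filter (none, or a mean of 1 FPKM), the scaling (upper quartile or quantile), the variance model (robust eBayes or array quality weights) or the mice (2 groups only, or each mouse left out). Leaving out 2 EtOH-UA mice and a covariate for summed FPKM were added after the data were seen. Coordinates and promoters are from RefSeq on GRCm38.p6, the assembly also called mm10. By GENCODE release M21, exons of 2 members (Kcnh3 and Kcnh7) shared bases with exons of another coding gene, at most 4.75% of their length. Overlap with introns of other genes was not examined. Proteins were not used here, and some members are counted but not reported singly.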

Additional observations from a re-analysis of the deposited data

Results flagged for a closer look

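Values of 53 named members were examined in each of the 3 groups for 1 mouse far from the rest, by Dixon's ratio, the gap to the nearest mouse divided by the range of the group, both on the log2(FPKM + 0.1) scale. Of 159 such groups 10 passed the 95% critical value, where chance alone gives about 7.95, and they came from 6 mice.

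In the EtOH-UA mouse with the highest summed FPKM, 3 members were lowest: Kcnab3 at 5.11 FPKM (next 8.47, ratio 0.633), Kcnd1 at 1.42 FPKM (next 2.07, ratio 0.59) and Kcnh7 at 1.67 FPKM (next 4.26, ratio 0.586). In the EtOH mouse with the highest summed FPKM of its group, Kcna3 was lowest at 1.0 FPKM (next 2.07, ratio 0.763), Kcnj16 lowest at 6.70 FPKM (next 8.52, ratio 0.694) and Kcnab2 highest at 265 FPKM (next 195, ratio 0.685). The part of summed FPKM in these values was not tested.

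The others were single values. Kcnd1 was highest in 1 EtOH mouse, at 2.89 FPKM (next 2.62, ratio 0.625). For Kcng1 1 EtOH-UA mouse stood above the rest at 11.1 FPKM (next 8.74, ratio 0.646). Kcnip4 was highest in 1 Ctrl mouse, at 36.9 FPKM (next 30.9, ratio 0.506), and Kcnk1 lowest in 1 Ctrl mouse, at 24.6 FPKM (next 29.3, ratio 0.539).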

How the results depend on the processing

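No member passed an adjusted p under 0.05 by limma under any alternative run, and the fold changes of members with the smallest p kept their sign in all of them, in the comparison they were named for. With array quality weights 1 gene of the table, not a member, passed in EtOH against Ctrl mice, and with single mice left out 2 genes did, neither a member. The excess of log2 fold changes below 0 in EtOH-UA mice changed with 2 libraries: without the EtOH-UA mice of highest summed FPKM the median log2 fold change of the members turned from -0.04 to 0.02 against EtOH and from -0.04 to 0.02 against Ctrl mice. With array quality weights, 35 and 38 of 74 members were above 0 in these comparisons. With each mouse left out in turn, 32 to 37 members were higher in EtOH against Ctrl, 23 to 33 in EtOH-UA against EtOH and 23 to 33 in EtOH-UA against Ctrl mice. With single mice left out, the unadjusted p of Kcnq5 by limma reached 0.00791 and 0.00731 in the comparisons with EtOH and Ctrl mice, and 0.00913 and 0.0118 without both mice above, while Kcnd1 rose to 0.139 and 0.0682 and Kcnk1 to 0.0245 and 0.0598 without the EtOH-UA mouse of highest summed FPKM. In EtOH against Ctrl mice Kcnmb1, Kcnh2 and Kcne4 each rose above an unadjusted p of 0.05 by limma when 1 EtOH mouse was left out (0.0694, 0.0641 and 0.0945). No paired analysis was possible because the columns carry no replicate numbers. Members below 0.5 FPKM rest on few fragments per mouse.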
